A study of Homo sapiens with 32 samples.

Results

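The response of MCF10A cells to low oxygen was read here from total mRNA, as 2 hypoxic (H) against 2 normoxic (N) libraries. These 4 libraries were chosen by their labelled cell line, fraction and treatment, out of 32 libraries in all. MCF10A is an immortalised, non-tumourigenic line derived from human breast epithelium, and the study set it beside MDA-MB-231, a line from a metastatic triple-negative breast carcinoma. Hypoxic cells were kept in 0.5% O2 for 24 hours, and neither group received PP242, an inhibitor that competes with ATP at the mTOR kinase. Per the study's methods, control cells received an equal amount of the vehicle, DMSO. All MCF10A cells grew in serum-containing medium with epidermal growth factor, hydrocortisone, cholera toxin and insulin, so that both groups carried these agents. Total mRNA (T) is the mRNA of the whole lysate, whereas polysomal mRNA (P) comes from the polysome fractions of a sucrose gradient. The 2 libraries of a group are labelled biological replicates, but the sources used here do not say whether they were grown on separate days.

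Cells sense oxygen mainly through the hypoxia-inducible factors (HIF). With oxygen present, prolyl hydroxylases of the EGLN family mark the α subunits HIF1α (gene HIF1A) and HIF2α (EPAS1) for destruction. Without oxygen the α subunits pair with ARNT and bind DNA at sites that often hold the letters ACGTG. The classical targets carry glucose into the cell, ferment it to lactate, export acid, store glycogen, clear mitochondria, harden collagen and call in blood vessels. In epithelial cells, low oxygen is also known to slow the cell cycle and to restrain mTOR complex 1.

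The total counts were 35547567 and 43854886 in the N libraries, and 39843310 and 42939854 in the H libraries. Protein-coding genes held between 97.39% and 97.99% of them. Mitochondrially encoded genes took 7.75% and 6.15% of the counts in N and 6.07% and 5.79% in H, and ribosomal protein genes took 10.0% and 10.4% in N and 7.96% and 10.3% in H. Levels below are counts scaled to library size (CPM) and adjusted by the trimmed mean of M-values (TMM), always in the order N replicate 1, N replicate 2, H replicate 1 and H replicate 2.

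The labelled cell type was checked against its markers. The basal keratins KRT5 and KRT14 were abundant, with KRT5 at 1785, 1190, 1636 and 2046 CPM. The 10 basal markers summed to 3636 and 2566 CPM in N and to 6114 and 6874 CPM in H. Per kilobase of transcript, KRT5 had the highest mean of them in N (360.0 CPM per kilobase) and KRT14 in H (881 CPM per kilobase). TP63, which encodes the master regulator of basal epithelium, was below 1 CPM in all 4 libraries. Of 6 general epithelial markers, KRT8 and KRT18 were present. The other 4 were below 1 CPM in every library, namely CDH1 (E-cadherin, at most 0.117 CPM), EPCAM, KRT19 and CLDN4. The 6 summed to 291 and 299 CPM in N and to 148 and 213 CPM in H. KRT18 was at 151, 166, 60.4 and 86.5 CPM (log2FC −1.11) and was not called. Of the luminal markers, ESR1, PGR, FOXA1 and TFF1 were below 1 CPM, but GATA3 was at 6.74, 6.47, 7.03 and 7.40 CPM and XBP1, which is widely expressed, at 94.6, 67.4, 73.1 and 81.8 CPM. The libraries therefore carried basal keratins with almost no reads from E-cadherin or p63.

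Markers of cells that a culture of one line should lack were mostly near 0, but DCN and CD68 were not. Neither CD3E nor TYROBP had a read in any of the 4 libraries. CD68 was the only leukocyte marker above 1 CPM, at 35.4, 40.65, 59.0 and 79.6 CPM. Of 8 fibroblast markers, COL1A2, COL3A1, LUM, PDGFRA and THY1 were below 1 CPM, and DCN, COL1A1 and PDGFRB were above it. The fibroblast list summed to 100.9 and 73.5 CPM in N and to 94.7 and 127 CPM in H, with DCN as its most abundant gene. Of 6 endothelial markers, PECAM1 was the only one above 1 CPM, at 0.209, 0.295, 1.08 and 1.06 CPM, and none was called.

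By the quasi-likelihood test of edgeR over 13124 protein-coding genes, hypoxia upregulated 183 genes and downregulated 19 at an adjusted p under 0.05. These 202 genes were 1.54% of those tested, 1.39% upward and 0.145% downward. The upregulated genes had a median log2 fold change (log2FC) of 2.43, with 118 of 183 above 2, whereas the downregulated genes had a median of −1.57. The median of all genes was −0.03. At an unadjusted p under 0.05 there were 1426 genes, or 10.9% of those tested. In these bulk samples, fewer cells of a kind and less mRNA per cell cannot be told apart.

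The count of calls depended on every library. Leaving out H replicate 1 gave 87 calls, leaving out H replicate 2 gave 67, leaving out N replicate 1 gave 32, and leaving out N replicate 2 gave 39. It also depended on the libraries fitted, the tool and a term for the replicate number. The fit shared 1 estimate of the spread over all 16 MCF10A libraries. The SD of the log2 difference between replicates was 0.396 in N and 0.575 in H, but up to 1.19 in the other 6 groups, and a fit to these 4 libraries alone, with its own filter, scaling and spread, upregulated 501 genes and downregulated 100. DESeq2 upregulated 380 and downregulated 116, which put the upregulated share of the calls at 76.6% in place of 90.6%. A term for the replicate number within each fraction gave 438 calls (360 upward and 78 downward).

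**Figure D1:**
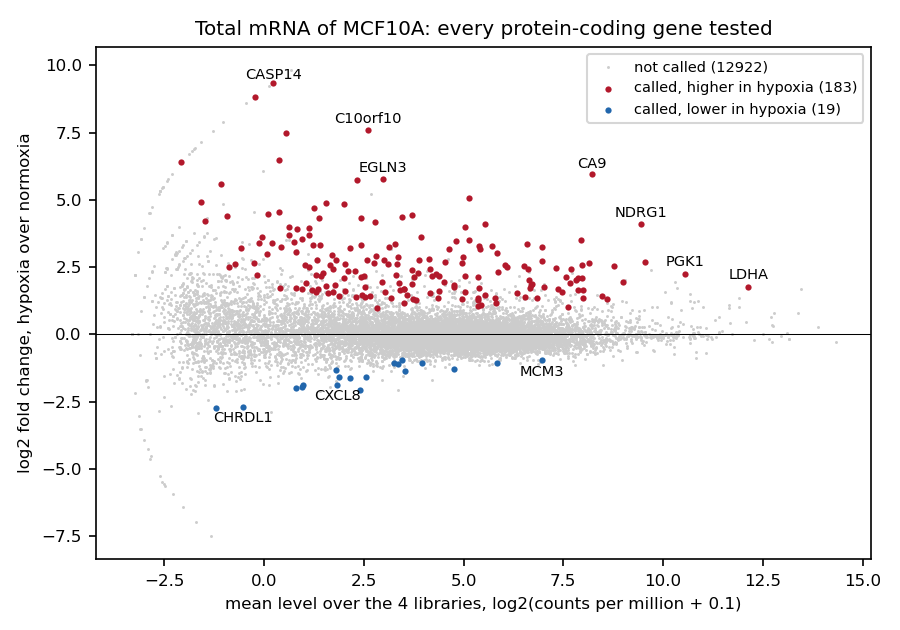
Mean level of each of the 13124 tested genes in the 4 total mRNA libraries (log2 of CPM plus 0.1, horizontal) against the log2FC of H over N (vertical). Coloured points are the 183 upregulated and 19 downregulated genes at an adjusted p under 0.05, and grey points are the rest. The upregulated genes reach a fitted log2FC of 9.34, while no downregulated gene passes −2.72.

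The labels were checked with CA9, a membrane carbonic anhydrase that acidifies the surroundings of hypoxic cells and is a well-known HIF1α target. Its level was 10.4 and 8.64 CPM in N and 522 and 658 CPM in H. Both H libraries stood far above both N libraries, a 62.0-fold difference (log2FC 5.95, SE 0.483, edgeR adjusted p 0.000161). CA12, a related carbonic anhydrase, followed with 15.0, 19.1, 185 and 164 CPM (log2FC 3.36, SE 0.333, edgeR adjusted p 0.000457). CA2, the cytosolic form, was picked after its values were seen and did not pass, at 4.83, 5.58, 1.59 and 1.50 CPM (log2FC −1.75, edgeR adjusted p 0.0701). Of 8 tested genes of pH control and lactate export, CA9 and CA12 rose and none fell, against 1.39% of all tested genes called upward. The median log2FC of this list was 0.46.

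Promoters of induced genes are shown because the HIF proteins often bind ACGTG. Every promoter printed holds a match, so these sequences do not show how common a match was among induced genes. The windows span 250 bases before to 50 bases after each RefSeq start on GRCh38.p14, and the stretch around the matches before the start is printed 5′ to 3′ on the strand of the gene. Where a gene has several starts, the window with the most matches is shown, which applies to LDHA (2 windows, 1 with a match) and LOX (3 windows, all with a match). Capitals mark ACGTG or its reverse complement CACGT, which overlap in CACGTG.
CA9, chr9:35673890-35673927, plus strand: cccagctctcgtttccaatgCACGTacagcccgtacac
PGK1, chrX:78104026-78104089, plus strand: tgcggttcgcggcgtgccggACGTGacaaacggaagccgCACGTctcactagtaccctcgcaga
LDHA, chr11:18394358-18394514, plus strand: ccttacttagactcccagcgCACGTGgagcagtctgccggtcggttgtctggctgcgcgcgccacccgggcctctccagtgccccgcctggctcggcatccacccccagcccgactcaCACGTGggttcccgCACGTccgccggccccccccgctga
ENO2, chr12:6914442-6914486, plus strand: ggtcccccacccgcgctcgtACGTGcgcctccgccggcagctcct
P4HA1, chr10:73096928-73096972, minus strand: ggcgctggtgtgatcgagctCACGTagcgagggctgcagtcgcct
LOX, chr5:122078277-122078464, minus strand: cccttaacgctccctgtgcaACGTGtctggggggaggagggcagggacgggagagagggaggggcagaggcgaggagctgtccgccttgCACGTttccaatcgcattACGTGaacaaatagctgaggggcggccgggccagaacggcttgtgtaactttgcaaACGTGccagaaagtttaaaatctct
BNIP3, chr10:131982032-131982077, minus strand: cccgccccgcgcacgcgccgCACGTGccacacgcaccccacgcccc
BHLHE40, chr3:4979187-4979312, plus strand: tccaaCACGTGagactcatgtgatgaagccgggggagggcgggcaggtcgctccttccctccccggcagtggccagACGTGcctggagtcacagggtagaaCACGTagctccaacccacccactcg
PPFIA4, chr1:203026352-203026397, plus strand: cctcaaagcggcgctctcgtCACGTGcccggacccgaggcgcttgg

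In CA9 the match began 18 bases before the start of transcription, and in the LDHA window shown the first match began 185 bases before it. BNIP3, BHLHE40, LDHA and PPFIA4 held the palindrome CACGTG. The windows of other strongly induced genes, such as EGLN3, CA12, ADM, SLC2A1 and PFKFB4, held no ACGTG, which says only that these letters are not in the window searched. ACGTG on either strand was present in 25.1% of the 15409 windows found for 10516 tested genes, so a match by itself is common. GCGTG was present in 48.1% of these windows and is not marked here. Windows were found for 72.7% of the upregulated genes, which is under 80%, so their share was not compared with that of all genes.

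Among 11 genes of oxygen sensing, EGLN3 was the only one called. It encodes an oxygen-sensing prolyl hydroxylase that is itself a HIF target, and it rose from 0.183 and 0.358 CPM in N to 13.1 and 17.6 CPM in H (log2FC 5.79, SE 0.506, edgeR adjusted p 0.000271). EGLN1, the main hydroxylase, was at 75.9, 85.5, 205 and 187 CPM (log2FC 1.28, edgeR adjusted p 0.107). The HIF subunits themselves did not pass. HIF1A was at 472, 345, 367 and 320 CPM, so that its groups overlapped (log2FC −0.25, SE 0.46). EPAS1 was at 67.8, 90.0, 45.6 and 36.2 CPM (log2FC −0.95, edgeR adjusted p 0.328), and ARNT was at 46.6, 42.5, 51.4 and 38.6 CPM (log2FC 0.02, SE 0.361). The median of the list was 0.02.

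By number, glucose uptake and glycolysis gave the most called members of any list, with 7 of 26 tested genes up and none down. By share they did not, since 4 of 13 collagen hydroxylases and lysyl oxidases rose. Over all tested genes, 1.39% were called upward and 0.145% downward, which are the shares to set beside the counts of every list. A single call says little about a list as a whole. The median log2FC of the 26 was 1.17. In 21 of them both H libraries were above both N libraries, against 23.6% of all tested genes. The glucose transporter SLC2A1 was at 56.8, 61.6, 186 and 217 CPM (log2FC 1.77). SLC2A3, another transporter, picked after its values were seen, was at 3.24, 3.10, 8.93 and 7.52 CPM (log2FC 1.38). Both H libraries exceeded both N libraries for each. PFKFB4, which makes the activator of phosphofructokinase, rose from 7.34 and 9.76 to 76.2 and 76.7 CPM (log2FC 3.16, SE 0.309, edgeR adjusted p 0.000438).

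Later steps of the pathway rose as well. ALDOC, an aldolase, was at 24.3, 23.4, 173 and 281 CPM (log2FC 3.25, edgeR adjusted p 0.00524). PGK1, which makes the first ATP of glycolysis, was at 541, 491, 2230 and 2693 CPM (log2FC 2.25, SE 0.285, edgeR adjusted p 0.0019). ENO2, an enolase, was at 18.9, 18.9, 126 and 99.2 CPM (log2FC 2.58, SE 0.228, edgeR adjusted p 0.000271). LDHA, the enzyme that turns pyruvate into lactate, was at 2052, 2042, 5830 and 8122 CPM (log2FC 1.77, edgeR adjusted p 0.0261). For all of these the H libraries lay above the N libraries by more than the replicates differed. PGK1 and LDHA have processed pseudogenes in the genome, so part of their reads may be shared.

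Other steps had similar values without passing the test. PDK1, the kinase that keeps pyruvate out of mitochondria, was at 18.6, 19.8, 60.3 and 53.6 CPM (log2FC 1.57, edgeR adjusted p 0.113). GAPDH was at 4811, 5841, 12970 and 21150 CPM (log2FC 1.68, edgeR adjusted p 0.306), and its 2 H libraries lay further apart than its N libraries. PDK1 and GAPDH were picked after their values were seen.

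Of 14 tested genes of glycogen metabolism, 4 rose and none fell, against 1.39% of all tested genes called upward, with a list median of 0.81. GYS1, the glycogen synthase of most tissues, was at 47.2, 48.3, 162 and 150 CPM (log2FC 1.71, SE 0.271, edgeR adjusted p 0.00775). GBE1, the branching enzyme, was at 86.5, 68.3, 231 and 269 CPM (log2FC 1.69), and UGP2, which makes UDP-glucose, was at 156, 129, 382 and 352 CPM (log2FC 1.36). PPP1R3C brings protein phosphatase 1 to glycogen and had the largest change of the list, from 0.183 and 0.274 CPM in N to 3.16 and 6.27 CPM in H (log2FC 4.34, SE 0.770). In 10 of the 14 genes both H libraries were above both N libraries, against 23.6% of all tested genes.

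**Figure D2:**
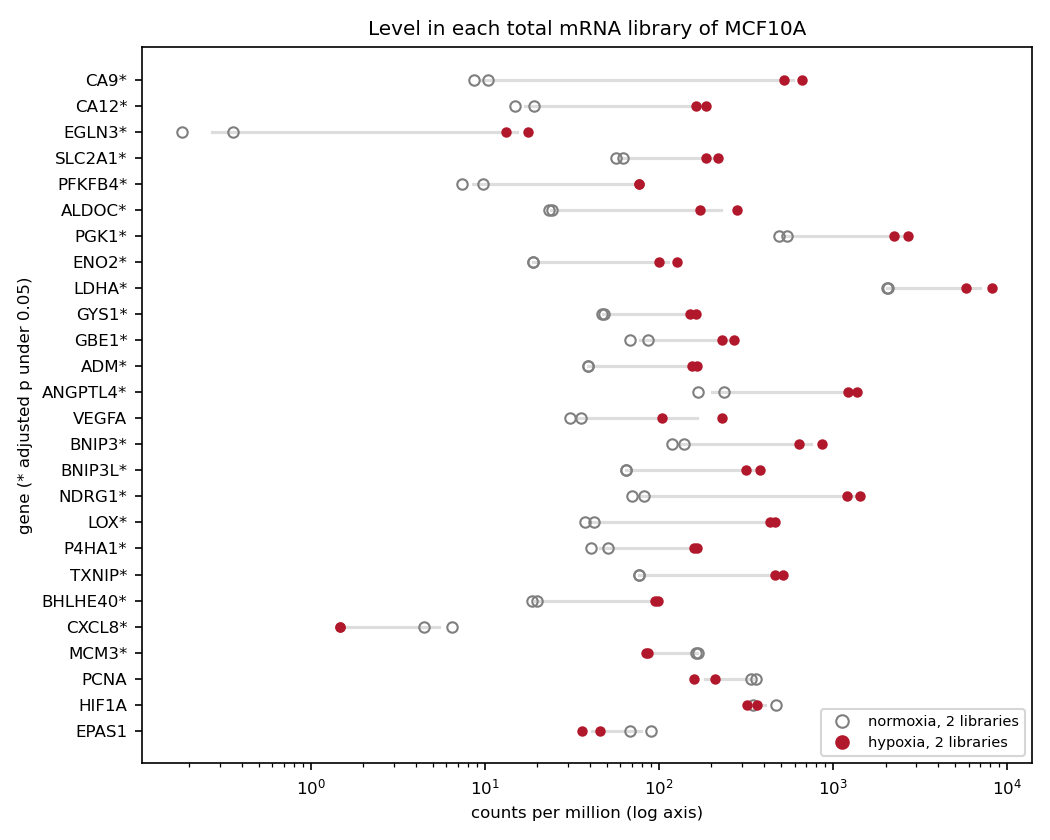
Level of 26 genes in each of the 4 libraries in CPM (horizontal, log axis), with open grey circles for the 2 N libraries, filled red circles for the 2 H libraries and a grey line joining the group means. Asterisks mark an adjusted p under 0.05. CA9 lies between 8.64 and 658 CPM, and HIF1A overlaps between the groups.

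Of 13 genes of mitophagy and mitochondrial adaptation, 3 rose and none fell (median 0.51), against 1.39% of all tested genes called upward. BNIP3 and BNIP3L encode receptors on the outer membrane that mark mitochondria for autophagy. BNIP3 was at 118, 139, 634 and 859 CPM (log2FC 2.54, SE 0.361) and BNIP3L at 64.8, 64.3, 314 and 378 CPM (log2FC 2.42, SE 0.254). FAM162A, a mitochondrial protein induced by HIF1α, was at 49.9, 47.6, 227 and 310 CPM (log2FC 2.46). In 7 of the 13 genes both H libraries were above both N libraries, against 23.6% of all tested genes.

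The respiratory chain did not pass in any member. Its 76 nuclear genes had a median log2FC of −0.17, with no call in either direction, and the smallest p-values belonged to ATP5G1 (195, 186, 96.6 and 129 CPM, log2FC −0.76) and CYC1 (277, 279, 174 and 218 CPM, log2FC −0.51). In 28 of the 76, both H libraries were below both N libraries, against 26.8% of all tested genes. The 13 mitochondrially encoded mRNAs had a median of 0.00 and no call. MT-ND3 was at 169, 95.0, 229 and 181 CPM and MT-CO3 at 7860, 7229, 5075 and 7218 CPM.

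Enzymes that need oxygen to work on collagen were next. Of 13 collagen hydroxylases and lysyl oxidases, 4 rose and none fell (median 0.99), against 1.39% of all tested genes called upward. LOX, which crosslinks collagen outside the cell, was at 42.5, 37.4, 464 and 436 CPM (log2FC 3.49, SE 0.415, edgeR adjusted p 0.00129), and LOXL2 was at 118, 126, 369 and 403 CPM (log2FC 1.66). P4HA1 and P4HA2, the catalytic subunits of collagen prolyl hydroxylase, were at 40.4, 50.7, 165 and 158 CPM (log2FC 1.83) and at 72.1, 68.1, 284 and 330 CPM (log2FC 2.13). In 11 of the 13 genes both H libraries were above both N libraries, against 23.6% of all tested genes. COL1A1, a fibroblast marker and a substrate of these enzymes, also rose, at 5.72, 4.95, 19.2 and 14.9 CPM (log2FC 1.68, SE 0.286). It was the only fibroblast marker called, COL1A2 stayed below 1 CPM in all 4 libraries, and the part of the marker list in this result was not tested.

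The histone and nucleic acid dioxygenases, whose chemistry also uses oxygen, gave no call among 22 genes. Their median was 0.31, and 10 of the 22 had both H libraries above both N libraries, against 23.6% of all tested genes. The smallest p-values were those of the histone demethylases KDM3A (21.3, 19.4, 61.4 and 42.2 CPM, log2FC 1.35, edgeR adjusted p 0.108) and KDM4B (15.8, 16.5, 34.9 and 27.7 CPM, log2FC 0.96).

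Secreted angiogenic and stress factors included 5 upregulated genes of 17 and none downregulated (median 1.32), against 1.39% of all tested genes called upward. ADM, the vasodilator adrenomedullin, was at 39.2, 39.2, 155 and 166 CPM (log2FC 2.03, SE 0.232, edgeR adjusted p 0.00109). ANGPTL4, an inhibitor of lipoprotein lipase, was at 166, 235, 1217 and 1371 CPM (log2FC 2.69). The stanniocalcins STC1 (7.60, 9.15, 61.3 and 45.2 CPM) and STC2 (81.5, 95.3, 362 and 359 CPM) had a log2FC of 2.67 and 2.03. IGFBP3, which binds insulin-like growth factors, was at 199, 221, 712 and 907 CPM (log2FC 1.95). In 13 of the 17 genes both H libraries were above both N libraries, against 23.6% of all tested genes. VEGFA, the main angiogenic factor, was looked up after these values were seen and did not pass, at 35.7, 30.9, 229 and 103.3 CPM (log2FC 2.32, SE 0.566, edgeR adjusted p 0.0816), with the 2 H libraries differing from each other by more than those of ADM.

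**Figure D3:**
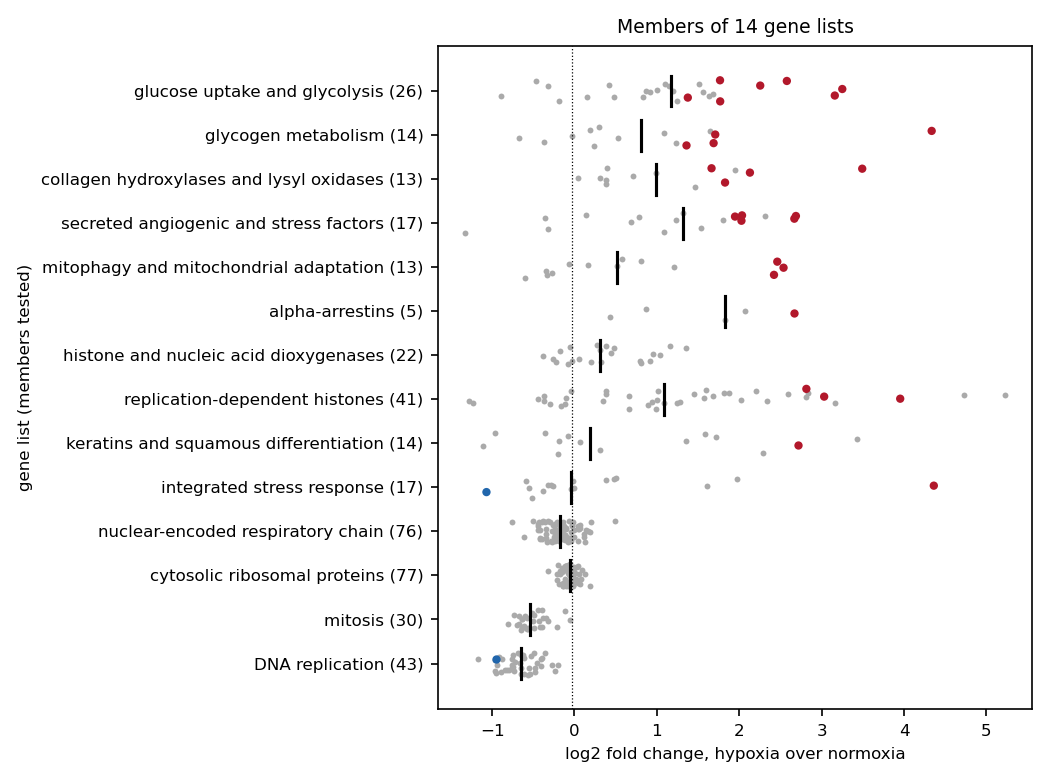
log2FC of H over N (horizontal) for each tested member of 14 gene lists (rows, with the number of members tested). Red points rose and blue points fell at an adjusted p under 0.05, grey points did not pass, black bars are list medians and the dotted line is the median of all genes. Glycolysis has 7 red points and a median of 1.17, whereas all 43 replication genes lie below 0.

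Of 17 genes of mTOR complex 1 and its brakes none was called, and the median was −0.04. DDIT4 (REDD1), a hypoxia-induced brake, was at 453, 625, 1524 and 1663 CPM and missed the threshold (log2FC 1.56, SE 0.415, edgeR adjusted p 0.113). RPTOR, the scaffold of the complex, was at 23.1, 31.95, 45.7 and 48.4 CPM (log2FC 0.77).

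Of 17 genes listed for the integrated stress response, VLDLR rose and PSAT1 fell, and the median was −0.04. VLDLR, a lipoprotein receptor, was at 0.940, 1.08, 20.5 and 21.1 CPM (log2FC 4.36, SE 0.470), and is known as a HIF target as well. PSAT1, an enzyme of serine synthesis, was at 75.9, 79.8, 38.5 and 35.8 CPM (log2FC −1.07, SE 0.227, edgeR adjusted p 0.0399). These 2 members went in opposite directions. The central factor ATF4 was looked up afterwards and stood at 414, 478, 362 and 384 CPM (log2FC −0.26). Among 13 genes of folding in the endoplasmic reticulum, 1 rose and none fell (median 0.21). It was ERO1A, the oxidase that forms disulfide bonds, at 99.4, 78.9, 305 and 220 CPM (log2FC 1.56, SE 0.316), while the chaperone CALR was at 674, 705, 945 and 1081 CPM (log2FC 0.55).

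Sterol and fatty acid synthesis had no call among 29 genes (median 0.20). INSIG2, which retains the sterol sensor in the endoplasmic reticulum, came nearest, at 17.1, 13.6, 46.1 and 44.7 CPM (log2FC 1.57, edgeR adjusted p 0.0535), and INSIG1 was at 22.8, 24.2, 48.4 and 60.8 CPM (log2FC 1.21). Iron handling had no call among 7 genes (median −0.08), with HMOX1 at 21.4, 16.8, 40.1 and 76.2 CPM and the transferrin receptor TFRC at 118, 114, 57.5 and 53.1 CPM (log2FC −1.07, SE 0.605). The 6 metallothioneins tested had no call either (median 0.49). MT1X was at 238, 182, 712 and 978 CPM (log2FC 2.01, edgeR adjusted p 0.284) and MT1F at 2.90, 3.10, 5.55 and 9.76 CPM, and the near-identical sequences of this family make single members uncertain.

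Among the alpha-arrestins, all 5 tested members had both H libraries above both N libraries, against 23.6% of all tested genes, and the list median was 1.83, but only TXNIP passed. TXNIP, which removes glucose transporters from the membrane and responds to glucose, was at 77.2, 77.1, 518 and 460 CPM (log2FC 2.67, SE 0.389, edgeR adjusted p 0.00514). ARRDC4, its closest relative, was at 4.65, 5.33, 22.4 and 19.4 CPM (log2FC 2.07, SE 0.565).

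Of 43 DNA replication genes, 41 had both H libraries below both N libraries, against 26.8% of all tested genes, and the median log2FC was −0.66, but only 1 passed the test. It was MCM3, a subunit of the replicative helicase, at 163, 168, 83.9 and 86.1 CPM (log2FC −0.96, SE 0.210, edgeR adjusted p 0.0467). MCM6, from the same helicase, had almost the same change with 128, 125, 64.5 and 64.7 CPM (edgeR adjusted p 0.0543). The clamp PCNA, looked up afterwards, was at 360, 335, 158 and 210 CPM (log2FC −0.92, edgeR adjusted p 0.218). Of 30 mitosis genes none was called, the median was −0.54, and 23 had both H libraries below both N libraries, against the same 26.8%. AURKA was at 123, 154, 89.7 and 89.3 CPM (log2FC −0.63), and MAD2L1 of the spindle checkpoint at 116, 112.3, 77.1 and 76.5 CPM (log2FC −0.57).

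Regulators of G1 gave 1 call upward and none downward among 19 genes (median −0.21). CDKN1C (p57), an inhibitor of cyclin-dependent kinases, was at 6.89, 5.48, 41.8 and 38.0 CPM (log2FC 2.69, SE 0.377, edgeR adjusted p 0.004). CCNG2, a cyclin linked to arrest, was at 26.4, 21.6, 71.8 and 58.0 CPM (log2FC 1.44). In the MYC-MAX-MXD network, 1 of 10 rose and none fell (median 0.15). MXI1, a repressor that competes with MYC for MAX, was at 12.8, 11.0, 40.9 and 43.6 CPM (log2FC 1.82, SE 0.323), MNT was at 13.6, 10.8, 29.4 and 19.2 CPM, and MYC, looked up afterwards, was at 198, 180, 167 and 175 CPM.

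Replication-dependent histone genes usually follow DNA replication in the cell cycle. Of 71 listed, 41 passed the filter on low counts, and of these 3 rose and none fell, against 1.39% of all tested genes called upward. Of the 41, 26 had both H libraries above both N libraries, against 23.6% of all tested genes, and the median was 1.08, but the filter can be met through the H libraries alone, so these values do not describe the other 30. All 71 together summed to 74.7 and 68.4 CPM in N and to 366 and 334 CPM in H. HIST1H2AC was at 11.8, 12.9, 104.3 and 98.04 CPM (log2FC 3.03), HIST1H2BD at 4.60, 4.07, 28.8 and 32.1 CPM (log2FC 2.81) and HIST1H4H at 0.340, 0.169, 5.37 and 2.48 CPM (log2FC 3.95). Most histone mRNAs lack a poly(A) tail, which these libraries selected for, and the genes are near-identical copies, so single values are uncertain.

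**Figure D4:**
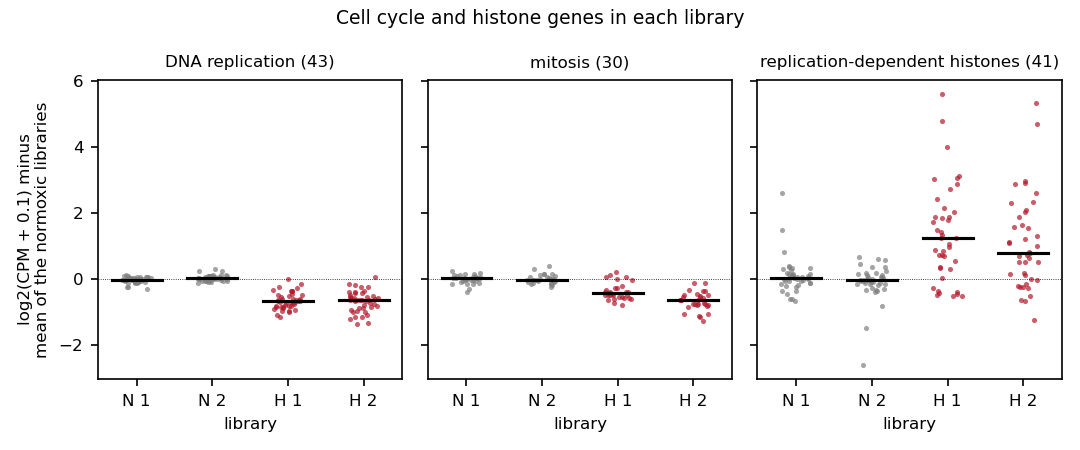
Deviation of each tested gene from its mean in the N libraries (log2 of CPM plus 0.1, vertical) in each of the 4 libraries (horizontal, N grey and H red), for DNA replication, mitosis and histone genes, with black bars at the medians. The medians in H were −0.68 and −0.64 for replication, −0.43 and −0.63 for mitosis, and 1.24 and 0.79 for histones.

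The 77 cytosolic ribosomal protein genes were close to the median of all genes, with a median of −0.06, no call and log2FC from −0.32 to 0.19. RPS26 (505, 497, 337 and 466 CPM) and RPS23 (1104, 1027, 779.1 and 1065 CPM) had the smallest p-values. H replicate 1 was the low library for both.

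Genes of the epithelial surface and matrix contact followed. Of 18 integrins, ITGB4 rose and none fell (median 0.19), against 1.39% of all tested genes called upward. ITGB4, the β4 chain of hemidesmosomes, was at 197, 192, 519 and 520 CPM (log2FC 1.42, SE 0.314, edgeR adjusted p 0.0496). ITGB3, the β3 chain of the vitronectin receptor, was at 6.42, 5.14, 11.0 and 8.21 CPM in total mRNA (log2FC 0.74, SE 0.852). ITGB3 overlaps RP11-290H9.2 on the same strand (log2FC −3.50, not called), so reads may be shared between them and its value is uncertain. ITGB2 was at 10.4, 10.2, 14.2 and 18 CPM. Of 14 keratins and genes of squamous differentiation, KRT6A rose and none fell (median 0.19). It was at 45.98, 19.7, 232 and 199 CPM (log2FC 2.71, SE 0.508), with near-identical relatives in KRT6B and KRT6C, and KRT14 was at 752, 458, 1669 and 2306 CPM (log2FC 1.72, edgeR adjusted p 0.106).

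Among 20 genes of the epithelial-mesenchymal transition none was called (median 0.23). TGFB2, a transforming growth factor, had the largest difference, at 18.4, 14.3, 3.68 and 4.13 CPM (log2FC −2.06, SE 0.673, edgeR adjusted p 0.217), and CDH3 (P-cadherin) was at 5.51, 3.71, 8.70 and 8.41 CPM. The Notch pathway gave no call in 11 genes (median 0.12), with NOTCH4 at 0.601, 1.10, 2.30 and 2.39 CPM and DLL1 at 0.653, 0.316, 0.773 and 1.21 CPM. ID proteins and BMP signalling gave none in 13 (median −0.19). ID2, which blocks differentiation factors, was at 23.8, 25.1, 55.3 and 80.5 CPM (log2FC 1.47, edgeR adjusted p 0.0619), and SMAD6, a brake on BMP signals, at 13.3, 15.9, 9.40 and 8.02 CPM (log2FC −0.74).

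Of 19 immediate early genes and feedback inhibitors of ERK, 2 rose and none fell (median −0.01), against 1.39% of all tested genes called upward. SPRY1, an inhibitor of receptor tyrosine kinase signalling, was at 0.131, 0.232, 6.19 and 4.77 CPM (log2FC 4.87, SE 0.755), and JUN at 87.8, 79.9, 306 and 333 CPM (log2FC 1.93, SE 0.286). Of 17 cytokines, IL1A rose from 0.392 and 0.211 to 4.52 and 3.22 CPM (log2FC 3.69) and the neutrophil chemokine CXCL8 fell from 6.48 and 4.45 to 1.48 and 1.48 CPM (log2FC −1.88, SE 0.336), with a list median of −0.33.

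Of 15 circadian clock genes, 2 rose and none fell (median 0.43), against 1.39% of all tested genes called upward. They were the repressors BHLHE40 (18.7, 20.0, 98.3 and 94.5 CPM, log2FC 2.32) and BHLHE41 (0.183, 0.337, 3.07 and 2.68 CPM, log2FC 3.44). NDRG1, a stress-induced gene that slows growth and spread in several carcinomas, was the only member of its family of 3 tested that was called (list median 0.11). Its level was 69.7, 82.0, 1204 and 1431 CPM (log2FC 4.12, SE 0.389, edgeR adjusted p 0.000356), whereas NDRG2 was at 1.85, 1.35, 0.609 and 1.16 CPM.

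Of the 183 upregulated genes, 42 were in one of the 32 gene lists, and several of the largest changes were outside them. CASP14, a protease of cornified skin, had no read in N and 100 and 79 counts in H, which is at least 61.4-fold higher when 3 counts are allowed over the N group. NDNF, a secreted neuron-derived factor, likewise went from 0 to 57 and 69 counts (at least 43.2-fold). PCDHGA8 had 0 counts in N and 13 and 10 in H (at least 7.89-fold), and shares its 3′ exons with the other genes of the γ-protocadherin cluster, which makes it uncertain. These genes went from no detected read to a low level in these 4 libraries, and the bounds cover counting error only. The log2FC in polysomal mRNA and with PP242 was 7.15 and 9.01 for CASP14, 4.02 and 4.32 for NDNF, and 6.16 and 1.13 for PCDHGA8. NDNF had reads in the normoxic libraries of both sets (0.105 and 0.0802 CPM, then 0.0517 and 0.0419 CPM), and PCDHGA8 in those with PP242 (0.103 and 0.1675 CPM).

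Other large changes began from 1 or 2 reads. PTPRN, a phosphatase-like protein of secretory granules, had 0 and 1 counts in N and 95 and 129 in H, a ratio of 230.5 with a 95% exact interval of 41.0 to 9144. SLC38A5, a glutamine transporter, had 0 and 2 counts in N and 2.04 and 2.71 CPM in H (ratio of counts 101.4, interval 27.7 to 843). IL2RG, the common γ chain of cytokine receptors, had 1 and 0 against 32 and 29 (ratio 62.8, interval 10.8 to 2519), and CLEC5A, a myeloid lectin receptor, 1 and 0 against 25 and 13 (ratio 39.1, interval 6.61 to 1584). The intervals cover counting error only, and their width shows how little the N libraries fix these ratios.

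C10orf10 (DEPP1), a FOXO target, rose from 0.0522 and 0.0632 CPM to 8.72 and 15.1 CPM (log2FC 7.60, SE 0.56, edgeR adjusted p 0.000113). It lies on the opposite strand inside RASSF4, which was called upward too (log2FC 3.34), and as strand is not stated the reads of the 2 genes cannot be told apart where they overlap. TREM1, an amplifier of inflammation on myeloid cells, was at 0.183, 0.169, 9.82 and 9.37 CPM (log2FC 5.75, SE 0.529). The synaptic scaffold gene PPFIA4 was at 2.01, 2.02, 89.6 and 45.8 CPM (log2FC 5.07, SE 0.559), and 2 little-known genes, C4orf47 (0.313, 0.211, 6.68 and 8.38 CPM) and ANKFN1 (0.183, 0.148, 3.40 and 5.39 CPM), had a log2FC of 4.84 and 4.71.

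Among called genes, the 10 largest decreases were in genes of low level, at most 10.4 CPM in N. MCM3 and PSAT1 above were downregulated from higher levels. NUAK2, a kinase related to AMPK, was at 8.43, 8.22, 2.16 and 1.82 CPM (log2FC −2.06, SE 0.326, edgeR adjusted p 0.00762). SYN1 (0.601, 0.548, 0.0469 and 0.123 CPM) and CHRDL1, a BMP antagonist (0.940, 1.12, 0.164 and 0.148 CPM), had the largest decreases of the called genes, with a log2FC of −2.72 and −2.70. IQGAP2, a scaffold of the cytoskeleton, was at 3.19, 2.07, 0.609 and 0.689 CPM, and RGS7, a regulator of G proteins, at 2.17, 3.67, 0.703 and 0.787 CPM. For each, as for all 19 downregulated genes, both H libraries lay below both N libraries. The endothelial transcription factor SOX7 (2.74, 3.16, 0.750 and 0.861 CPM), TMEM156 (5.61, 7.57, 1.95 and 2.36 CPM), the receptor GPR3 (5.80, 4.89, 1.73 and 1.84 CPM) and SOCS3, a feedback inhibitor of cytokine signals (6.89, 10.4, 3.12 and 2.71 CPM), had log2FC between −1.87 and −1.57.

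The same contrast was then read in other libraries, to see where the total mRNA of MCF10A cells without PP242 differed. In the polysomal mRNA of MCF10A, 195 genes were called (1.49%), and with PP242 at 2.5 µM for 3 hours in both arms, 547 genes were called in total mRNA (4.17%). Of the 183 upregulated genes, all 183 had a positive log2FC in polysomal mRNA and 153 were called there, and with PP242 all 183 were positive and 164 were called. Their medians were 2.43 in total mRNA, 2.31 in polysomal mRNA and 2.23 with PP242. Since the genes were chosen for passing in the first of these, a lower median in the others can arise from that choice alone. Of the 19 downregulated genes, 19 were negative in polysomal mRNA with 12 called, and 18 were negative with PP242 with 9 called. The total and polysomal libraries of a replicate carry the same sample number in the labels, so the polysomal values are not independent of those in total mRNA.

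By the edgeR test, no gene differed between the responses of total and polysomal mRNA (0.0% of those tested). At an unadjusted p under 0.05 there were 23, or 0.175%. None differed between the responses without and with PP242 either (0.0%), with 230, or 1.75%, at an unadjusted p under 0.05. DESeq2 called 6 genes in the latter and 0 in the former. With a term for each sample number, shared by its total and polysomal libraries, the former was 0 too, with 33 genes (0.251%) at an unadjusted p under 0.05. All these shares are below what that threshold alone would give, so a count of 0 does not show that the responses were alike in either comparison. Single differences have wide errors in this design. The response of TXNIP, for example, had a log2FC of 2.67 without and 1.45 with PP242 (difference 1.22, SE 0.519). That of STC2 was 2.03 and 0.93 (difference 1.10, SE 0.351). CXCL8, called downward without PP242, was at −1.88 without and 0.27 with it (difference −2.15, SE 0.459). The ribosomal protein genes had a median log2FC of −0.06 in total mRNA and −0.74 in polysomal mRNA, with no member called in either.

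Between the cell lines, the response did differ. In a joint fit of all 32 libraries, hypoxia called 41 of 14298 genes in the total mRNA of MDA-MB-231 (0.287%), and 38 genes (0.266%) differed in response between the lines, 28 with a more positive log2FC in MCF10A and 10 with a more negative one. This count was 18, 12, 13 and 8 without H replicate 1, H replicate 2, N replicate 1 and N replicate 2 of MCF10A, and 15, 18, 19 and 19 without the same libraries of MDA-MB-231. It was higher in other fits, at 126 genes (0.651%) with DESeq2, 70 (0.490%) with a replicate block and 0.713% of genes with a replicate block within each fraction. The joint fit shares 1 spread between the lines, so the MDA-MB-231 count belongs to that fit. Of the 183 genes upregulated in MCF10A, 143 had a positive log2FC in MDA-MB-231 and 29 were called there, and the median of all 183 in that line was 0.60. Choosing the genes by their MCF10A values can itself make the median in the other line lower. Of the 28 genes, 25 were upregulated in MCF10A, and of the 10 genes, 5 were downregulated there. Both counts reuse the MCF10A libraries of the test between lines, so they are not separate evidence.

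The genes that differed were in part classical hypoxia targets. CA12 was at 15.0, 19.1, 185 and 164 CPM in MCF10A and did not pass in MDA-MB-231 (log2FC −0.57), a difference of 3.90 (edgeR adjusted p 0.000634). EGLN3 rose in both lines, by a log2FC of 5.79 and 2.36 (difference 3.41, edgeR adjusted p 0.00115). VLDLR (difference 3.30), SPRY1 (4.95), SLC37A2, a sugar-phosphate transporter of the endoplasmic reticulum (1.33, 1.41, 7.36 and 6.79 CPM, difference 2.97), and C10orf10 (4.88) belonged to the same group. For these genes the MCF10A log2FC was the larger, which does not mean a higher level. In hypoxia, MDA-MB-231 had more CPM, scaled in the joint fit, for EGLN3 (24.05 and 23.4), SPRY1 (26.3 and 27.5) and SLC37A2 (40.7 and 30.2). It had fewer for CA12 (3.92 and 3.80) and C10orf10 (3.82 and 2.33), and for VLDLR the lines overlapped (23.4 and 20.6). Smaller differences were found for STC2 (2.37), TXNIP (2.30), IGFBP3 (1.65) and ENO2 (1.31).

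Other targets had a similar log2FC in both lines, which does not mean a similar level. CA9 in MDA-MB-231 was at 0.498, 0.0476, 16.9 and 11.1 CPM, scaled in the joint fit, far below its level in MCF10A. The difference was 0.44 for CA9, 0.33 for NDRG1, −0.13 for BNIP3 and 0.11 for LDHA, none of which passed the test, with SE between 0.375 and 0.931, so that a modest difference would not have been seen. In the other direction, CXCL8, CHRDL1 and RGS7 fell in MCF10A and did not pass in MDA-MB-231 (differences −2.74, −2.60 and −2.45). STAMBPL1, a deubiquitinase (20.6, 21.7, 10.4 and 9.54 CPM), and ABHD3, a phospholipase (15.5, 13.3, 7.31 and 7.67 CPM), fell by 1.08 and 0.94 on the log2 scale. They differed from MDA-MB-231 by −1.23 and −1.33. ABHD3 passed narrowly in MCF10A (edgeR adjusted p 0.0497). Its call was lost without a filter, with median-of-ratios scaling, with a replicate block, with all gene classes and in the 4-library fit. Its log2FC in these fits was −0.88 to −0.97. The basement membrane protein TINAGL1 (4.26, 5.48, 1.03 and 1.45 CPM) and the chaperone HSPH1 (114, 119, 69.0 and 57.2 CPM) also differed between the lines without being called in MCF10A.

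**Figure D5:**
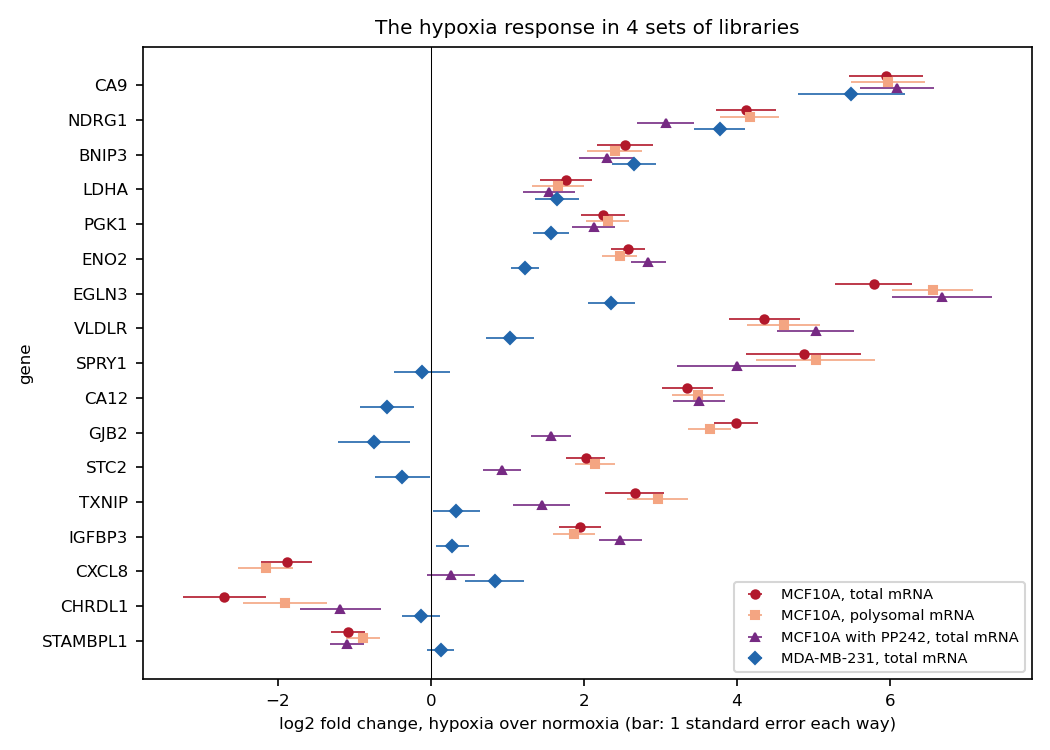
log2FC of hypoxia over normoxia (horizontal, bars 1 SE each way) for 17 genes (rows) in 4 sets of libraries, namely MCF10A total mRNA (red circles), MCF10A polysomal mRNA (orange squares), MCF10A total mRNA with PP242 (purple triangles) and MDA-MB-231 total mRNA (blue diamonds). CA9 lies between 5.50 and 6.09 in all 4 sets, whereas CA12 is between 3.36 and 3.50 in the MCF10A sets and at −0.57 in MDA-MB-231.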

How the data were processed

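Poly(A)-selected TruSeq libraries were sequenced in pairs of reads. Per the study's methods, the authors mapped them to GRCh38 with STAR and ran RSEM to estimate expected counts for each gene, which shares a read among genes it fits, and the submitters' processing notes also name edgeR but give the build as GRCh37. The deposited expected counts are whole numbers without normalisation for 60554 genes, of which 19815 are protein-coding, and strand is not stated. No annotation coordinates were taken from the files. Barcodes in the labels tied all columns to samples (0 unmatched).

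Everything else was computed here in R 4.3.3 (edgeR 4.0.16, DESeq2 1.42.0 and limma 3.58.1). The protein-coding counts of the 16 MCF10A libraries were fitted in 8 groups (8 residual degrees of freedom) after filterByExpr and TMM. The hypoxia contrast was tested by the quasi-likelihood F test with Benjamini-Hochberg adjustment over all 13124 genes and a threshold of 0.05. The SE is the log2FC divided by the root of F. The biological coefficient of variation was 0.325. A joint fit of 32 libraries in 16 groups gave MDA-MB-231 and the difference between lines (coefficient of variation 0.253). The edgeR tests of the hypoxia contrast and of the fraction difference were also run on generated counts with known changes. Those counts had the same spread in every group, so they cannot show how the unequal spread of the real groups affects the calls. With 2 libraries against 2, the smallest exact permutation p is 0.333, so none is given for single genes.

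CPM are TMM-scaled, and per-kilobase values use GENCODE v44 transcript lengths on GRCh38, found for 99.6% of tested genes. A fold against 0 reads uses 3 counts over the N group, and intervals are exact at 95%. Promoter windows come from RefSeq on GRCh38.p14, matched by symbol.

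Named genes were the 15 largest increases and 10 largest decreases called, up to 6 called members of each of 32 lists or the 2 members with the smallest p where fewer than 2 were called, the 5 called genes with the smallest adjusted p in each direction of each difference test that were also called in the main contrast with the 3 smallest over all genes, and HIF1A, EPAS1, ARNT, ITGB3, CA9 and the cell type markers. Genes outside this rule are marked as picked or looked up after their values were seen, except those named only for overlapping or resembling another, and some markers are not reported here. The members and lists were chosen with earlier results of these data known. The alternatives were no filter beyond 1 read, DESeq2, scaling by median of ratios (RLE), a fit to only the libraries compared, a replicate block over all libraries, within each fraction or, chosen after seeing the data, within each condition, all gene classes, other thresholds, an offset for transcript length (span 0.3) and leaving out each library.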

Additional observations from a re-analysis of the deposited data

Results flagged for a closer look

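The response to hypoxia differed between the total mRNA of MCF10A and MDA-MB-231 for 18 of the genes named above, by the edgeR test of the difference itself at an adjusted p under 0.05. Each value is the log2FC in MCF10A minus that in MDA-MB-231.

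The response was more positive in MCF10A for C10orf10 (4.88), SPRY1 (4.95), CA12 (3.90), EGLN3 (3.41), VLDLR (3.30), SLC37A2 (2.97), STC2 (2.37), TXNIP (2.30), IGFBP3 (1.65) and ENO2 (1.31). NDNF had a fitted difference of 8.23, but it had no read in either normoxic MCF10A library, so that this value depends on the fit and is no bound. The response was more negative in MCF10A for CXCL8 (−2.74), CHRDL1 (−2.60), RGS7 (−2.45), TINAGL1 (−2.44), HSPH1 (−1.78), ABHD3 (−1.33) and STAMBPL1 (−1.23). In C10orf10, reads of the overlapping gene RASSF4 cannot be told apart. The libraries of the lines were deposited in separate tables, so a difference between lines and one between sets of libraries cannot be told apart, although each response is taken within its own line. Groups of 2 libraries are too small to look for single outlying samples.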

How the results depend on the processing

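The 202 calls of hypoxia against normoxia in MCF10A total mRNA (183 upward, 19 downward) became 496 with DESeq2 (380 and 116), 601 in a fit to only the 4 libraries compared (501 and 100), and 32 to 87 with 1 library left out (32 to 86 upward, 0 to 1 downward). Downward calls numbered 9 without a filter, 54 with a length offset and 39 at an adjusted p under 0.10. All 202 calls kept their sign in these fits, except that 1 gene was not tested in the 4-library fit, but with 1 library left out this is fixed, since the groups of each called gene do not overlap. The share of calls upward was 95.8% without a filter, 76.6% with DESeq2, 83.4% with only the libraries compared, 82.1% with a length offset and 98.9% to 100.0% with 1 library left out. The length offset moved the median of all genes from −0.03 to −0.08.

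Of the 69 genes named in the text and called, 55 stayed called under every alternative that kept all 4 libraries, and 19 stayed called also with each library left out, among them CA9, CA12, EGLN3, NDRG1, ENO2, PFKFB4, ADM, LOX, P4HA1, P4HA2, BNIP3L and VLDLR. Without N replicate 1, 19 of the 69 stayed called. Of 60 named genes not called, 15 were called with DESeq2, 12 with a replicate block within each fraction, 8 with a length offset and 23 of 57 in the 4-library fit, so that a missed threshold depended on the fit.

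Replicate numbers were checked by correlating, across genes, the difference between replicates 2 and 1 in N with that in H, which gave 0.326, and the 6 pairs of total mRNA groups gave 0.283 to 0.778. Total and polysomal libraries, which share a sample number, gave −0.1 in N and −0.25 in H. With 2 replicates the numbers were not taken to pair the samples. A replicate block gave 214 calls (194 and 20), of which 191 were among the 202, and a replicate block within each fraction gave 438 (360 and 78, 82.2% upward), among them all 202.

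The difference between lines, called in 0.266% of the genes, was called in 0.651% with DESeq2, 0.490% with a replicate block, 0.713% with a replicate block within each fraction, 0.476% at an adjusted p under 0.10 and 0.0531% to 0.131% (8 to 19 genes) with 1 library left out. The difference between responses without and with PP242 went from 0 to 6 genes with DESeq2, and that between total and polysomal mRNA stayed at 0 under all alternatives, among them a replicate block within each condition, chosen after seeing the data.

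Small changes that did not pass any test changed sign. ARNT (0.02) was −0.008855 with a replicate block within each fraction, −0.02124 with all gene classes, −0.0392 with a length offset and −0.21 to 0.20 with 1 library left out. DCN ranged from −0.15 to 0.46 and EPCAM from −0.13 to 0.86 with 1 library left out. XBP1 (−0.06) was 0.00046 without a filter and −0.29 to 0.20 with 1 library left out. The causes were not tested. Where the normoxic libraries held 0 to 3 reads, as for CASP14, NDNF and PTPRN, depth limits the size of the fold.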

Other observations

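Genes outside the protein-coding class also moved. A fit of all gene classes called 191 genes, 167 of them among the 202 protein-coding calls. The other 24 were 0.669% of the 3586 genes tested outside that class, all 24 upward, and those named here were picked after their values were seen. MIR210HG, the host transcript of the hypoxia-induced microRNA miR-210, was at 13.2, 9.76, 79.7 and 78.0 CPM in the 2 N and 2 H libraries (log2FC 2.75, SE 0.477). UCA1, a long non-coding RNA first described in urothelial carcinoma, had 23 and 27 counts in N and 417 and 278 in H (log2FC 3.78, SE 0.661). HIF1A-AS2, transcribed from the strand opposite HIF1A, had 5 and 9 counts in N and 80 and 91 in H (log2FC 3.61, SE 0.615). It overlaps HIF1A, and as strand is not stated its reads and those of HIF1A cannot be told apart where they overlap. The pseudogenes BNIP3P1, LDHAP4, LDHAP3 and AK4P1 were called too, with log2FC of 2.43, 1.62, 1.71 and 1.50, and can share reads with BNIP3, LDHA and AK4, so their values are uncertain.

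Of the 183 upregulated protein-coding genes, 141 were in none of the 32 lists. The 5 given here were again picked after their values were seen. GJB2, a connexin of gap junctions, was at 4.204, 3.48, 50.5 and 71.5 CPM (log2FC 3.99, SE 0.289, edgeR adjusted p 0.000113), and its response differed from that in MDA-MB-231 by 4.72. The plakophilin PKP1, the junctional protein JAM2, the mucin MUC1 and CD24 had a log2FC of 4.55, 4.19, 3.31 and 2.17.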
